A study of Mus musculus with 10 samples.

Results

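The thick ascending limb genes described here are 9 genes for the transport proteins, the calcium sensor and the paracellular claudins of that nephron segment: Slc12a1, Umod, Kcnj1, Bsnd, Casr, Cldn10, Cldn14, Cldn16 and Cldn19. They were listed by name, with earlier results of these data known, and each had 1 row among the 30894 genes tested. Levels of RNA were read in mouse kidney after cyclosporin A (CsA), an immunosuppressant that blocks the phosphatase calcineurin. The 5 CsA arrays were from mice given 60 mg/kg subcutaneously each day for 7 days, and the 5 vehicle arrays from mice given the solvent, cremophore, in the same way. All mice had a C57BL/6 background, were 10 to 12 weeks old and ate low-sodium chow (0.05% sodium). All also came from a line with an inducible, Pax8-rtTA-dependent knockout of Vhl, Pax8 being a gene active in renal tubule cells. For all 10 samples the labels give 1 subcutaneous dose of 3 mg doxycycline as the means of induction, but do not say whether the knockout was induced in these animals. RNA came from halved whole kidneys, so that fewer cells of a segment and less RNA per cell cannot be told apart. The study was set up to find pathways that come before the kidney injury seen with longer dosing.

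Values are log2 expression values from an Affymetrix Mouse Gene ST 2.0 array, 1 array per sample, on which a difference of 1 is a doubling of the array signal. Array medians lay between 5.14 and 5.21, and correlations between arrays lay between 0.983 and 0.994. CsA replicates 1 and 2 carried female RNA: Xist, the RNA of the inactive X chromosome, stood at 9.21 and 9.15 there, while 4 Y-linked genes averaged 3.90 and 4.03. Among the remaining 8 arrays Xist reached 4.82 at the highest and the Y-linked average was never under 6.91, so that 3 CsA arrays and all vehicle arrays were male. Results are therefore given over all 10 arrays and in the 8 male arrays alone. Whether each array stands for a separate animal is not stated in the labels, and the p-values reflect the spread of these samples alone, which may be technical.

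The thick ascending limb reabsorbs salt without water. NKCC2, the product of Slc12a1, takes up sodium, potassium and chloride from the lumen, the channel ROMK (Kcnj1) returns potassium to it, and chloride leaves across the basolateral membrane through chloride channels that need barttin (Bsnd). The potassium recycling makes the lumen positive, and this voltage drives calcium and magnesium between the cells through pores built by claudin-16 and claudin-19, while claudin-10 makes a sodium-selective pore. The calcium-sensing receptor (Casr) on the basolateral side reduces this transport when blood calcium is high, in part through claudin-14, which closes the claudin-16 and claudin-19 pore. Umod encodes uromodulin, the protein this segment secretes into urine.

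In CsA kidneys, 3 of the 9 genes rose and 0 fell: Bsnd, Casr and Cldn19, each by 0.37 to 0.40 on the log2 scale. A gene was called at a limma adjusted p under 0.05, which 6.49% of all genes passed, 2.95% higher and 3.54% lower. Slc12a1, Kcnj1, Umod, Cldn10, Cldn14 and Cldn16 were not called, with differences between -0.03 and 0.10. For the 3 called genes, every CsA array exceeded every vehicle array, which held for 4.04% of all genes in that direction. In the 8 male arrays the same 3 genes still had groups that did not overlap (6.98% of all genes in that direction), but 0 of the 9 were called, where 3.17% of all genes were (1.53% higher and 1.64% lower). The 3 genes had an unadjusted p under 0.05 in that comparison, as did 18.8% of all genes. The median difference of the 9 genes was 0.07 (0.03 in males), against 0.0065 over all genes (0.0009 in males).

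**Figure D1:**
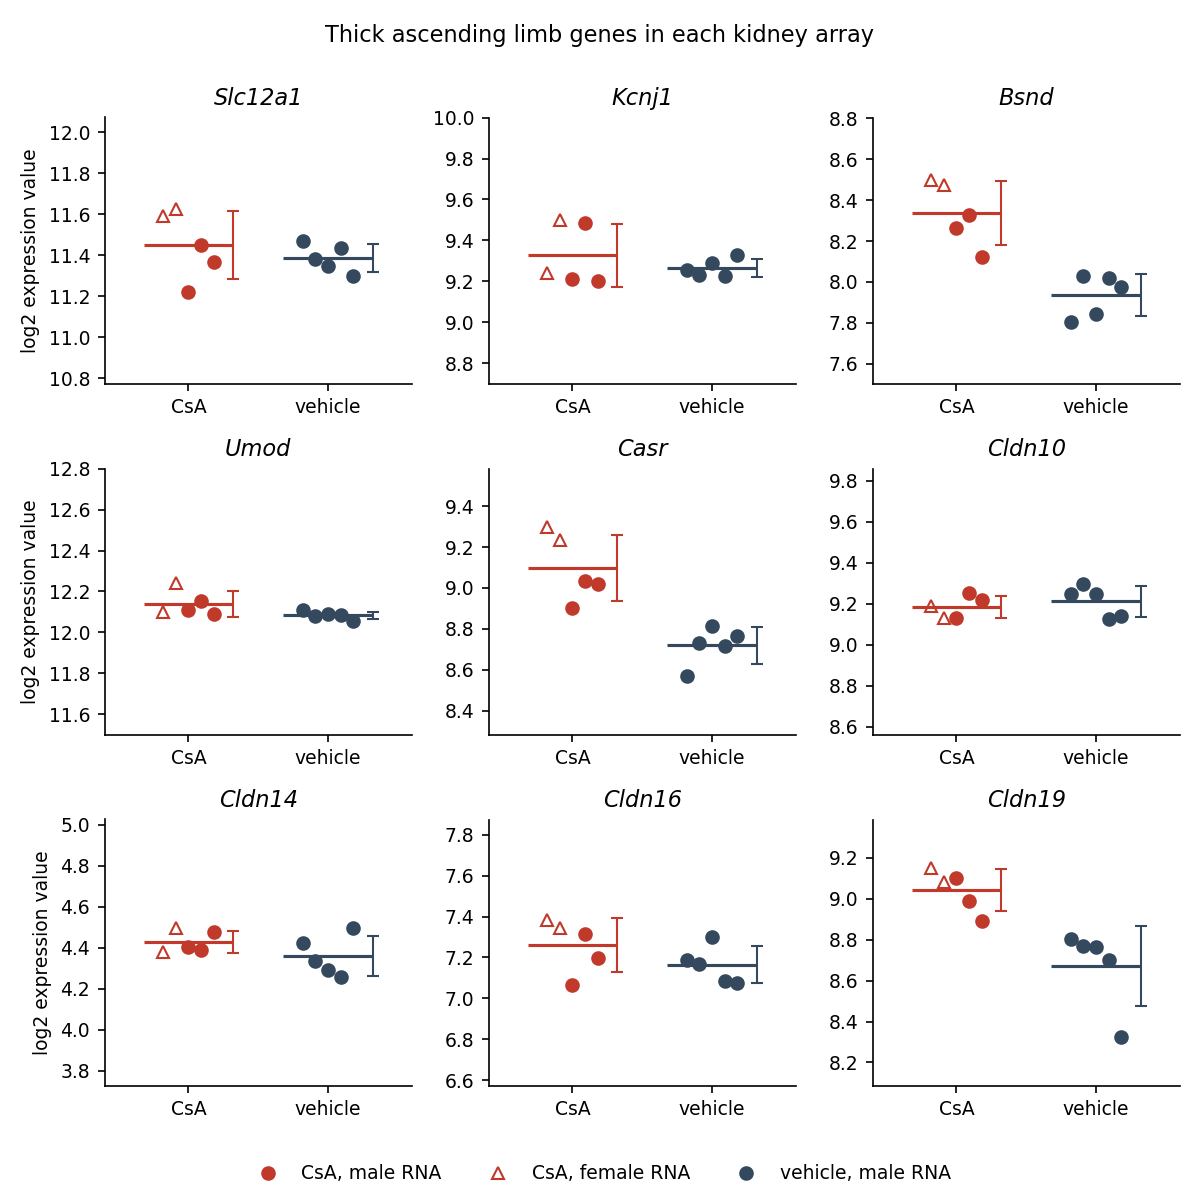
Log2 expression values of the 9 thick ascending limb genes in each array, with CsA left and vehicle right in each panel. Points are arrays, open triangles the 2 CsA arrays with female RNA, horizontal lines group means and error bars SD (n = 5 each); all panels span the same range of log2 units, and the groups do not overlap for Bsnd, Casr and Cldn19.

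Among the transporters and channels, Slc12a1 had values of 11.59, 11.63, 11.22, 11.45 and 11.37 in CsA replicates 1 to 5. In vehicle replicates 1 to 5 it had 11.47, 11.38, 11.35, 11.43 and 11.30. The 2 female CsA arrays were the highest of the 10 and CsA replicate 3 the lowest, and the groups overlapped. Means were 11.45 ± 0.17 in CsA and 11.39 ± 0.07 in vehicle arrays (SD, n = 5 each), a difference of 0.07 with a 95% interval from -0.12 to 0.25 (limma adjusted p = 0.715). The males-only difference had the opposite sign, -0.04 (-0.21 to 0.13, adjusted p = 0.835). For the mRNA of the cotransporter that loop diuretics block, these intervals leave out a rise of more than 18.7% over all arrays, or 9.76% in males, on the array scale. They allow changes down to -7.73% over all arrays and -13.7% in males. The row lay at the 99.6th percentile of gene means, where differences can be compressed.

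Kcnj1, the gene for ROMK, had 9.24, 9.50, 9.21, 9.48 and 9.20 in CsA arrays. In vehicle arrays it had 9.25, 9.23, 9.29, 9.23 and 9.33. CsA arrays lay on both sides of the vehicle arrays, 2 above the highest and 2 below the lowest. The SD was 0.15 in CsA and 0.04 in vehicle kidneys, and the difference was 0.06 (-0.11 to 0.23, limma adjusted p = 0.715), or 0.03 in males (adjusted p = 0.875).

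Bsnd, whose product barttin brings chloride channels to the membrane and switches them on, had 8.50, 8.48, 8.26, 8.33 and 8.12 in CsA arrays. Its values in vehicle arrays were 7.81, 8.03, 7.85, 8.02 and 7.97. The lowest CsA array thus lay 0.09 above the highest vehicle array, and the female CsA arrays were the 2 highest. Mean levels were 8.34 ± 0.16 in CsA and 7.93 ± 0.10 in vehicle arrays (SD, n = 5 each), and the difference was 0.40 ± 0.09 (SE, limma adjusted p = 0.0165). In males it was 0.30 ± 0.08 (adjusted p = 0.0864), with male CsA arrays between 8.12 and 8.33. Leaving out each array in turn kept Bsnd past the threshold all 10 times (adjusted p from 0.0116 to 0.0479).

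Barttin also serves intercalated cells of the collecting duct. Of 5 intercalated cell markers, 0 were called, where 6.49% of all genes were. Their summed levels were 10.73 to 11.13 in CsA and 10.87 to 10.95 in vehicle arrays.

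Umod, which marks this segment, was 12.10, 12.24, 12.11, 12.15 and 12.09 in CsA arrays. Vehicle arrays were at 12.11, 12.08, 12.09, 12.09 and 12.06. CsA replicate 2 stood highest, and the other 4 CsA arrays lay within or just above the vehicle range. The difference was 0.05, with an interval from -0.07 to 0.18 (limma adjusted p = 0.647), and 0.03 in males (adjusted p = 0.826). The row lay at the 99.8th percentile of gene means, near the top of the array's scale of 13.25, where differences can be compressed.

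Casr, the receptor that senses extracellular calcium, had 9.30, 9.23, 8.90, 9.03 and 9.02 in CsA arrays. It had 8.57, 8.73, 8.81, 8.72 and 8.77 in vehicle arrays. All 5 CsA arrays lay above the vehicle arrays, by at least 0.09, and the female pair was again the highest. Casr averaged 9.10 ± 0.16 in CsA and 8.72 ± 0.09 in vehicle arrays (SD, n = 5 each), a difference of 0.38 ± 0.09 (SE, limma adjusted p = 0.0228). In males the difference was 0.27 ± 0.08 (adjusted p = 0.0983). Casr missed the threshold without CsA replicate 2 and without vehicle replicate 1, 2 or 4 (adjusted p from 0.0518 to 0.0588).

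**Figure D2:**
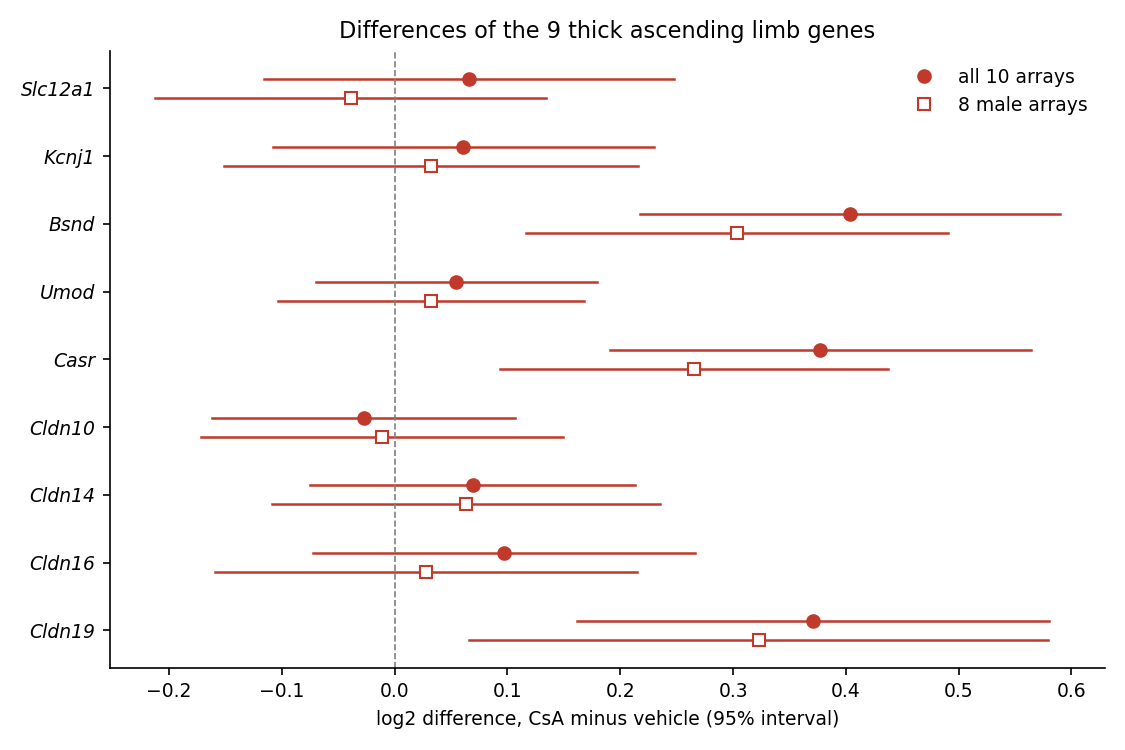
Log2 differences, CsA minus vehicle, of the 9 genes with 95% intervals from limma. Filled circles are all 10 arrays and open squares the 8 male arrays; the intervals of Bsnd, Casr and Cldn19 lie above 0 in both comparisons, and those of the other 6 genes include 0.

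Of the 4 claudins of the segment, 1 was called, where 6.49% of all genes were. The called claudin gene was Cldn19, whose product forms the calcium and magnesium pore together with claudin-16. It had 9.15, 9.08, 9.10, 8.99 and 8.89 in CsA arrays. Against these stood 8.80, 8.77, 8.76, 8.70 and 8.33 in vehicle arrays. Every CsA array was higher than every vehicle array, and vehicle replicate 5 lay far below the other vehicle arrays. The means were 9.04 ± 0.10 in CsA and 8.67 ± 0.20 in vehicle arrays (SD, n = 5 each), and the difference was 0.37 ± 0.10 (SE, limma adjusted p = 0.0400).

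In males Cldn19 differed by 0.32 ± 0.11 (limma adjusted p = 0.167). Without vehicle replicate 5 the difference over the other 9 arrays was 0.28 and still passed (adjusted p = 0.0406), whereas 8 of the other 9 single-array omissions moved it past 0.05 (up to 0.0873). Subtracting array medians also ended the call (0.33, adjusted p = 0.0685). Of the 3 calls, that of Cldn19 passed under the fewest alternatives.

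Cldn16, the partner of Cldn19 in the pore, had 7.38, 7.35, 7.06, 7.31 and 7.20 in CsA arrays. In vehicle arrays its values were 7.19, 7.17, 7.30, 7.09 and 7.07. CsA replicates 1, 2 and 4 lay just above the highest vehicle array and CsA replicate 3 below the lowest. Its difference was 0.10 (-0.07 to 0.27, limma adjusted p = 0.532), and 0.03 in males (adjusted p = 0.896). Whether Cldn16 and Cldn19 differed from each other in their response was not tested.

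Cldn10 had 9.19, 9.13, 9.13, 9.25 and 9.22 in CsA arrays, and 9.25, 9.30, 9.25, 9.13 and 9.14 in vehicle arrays. Both groups covered nearly the same range. The difference was -0.03 (-0.16 to 0.11, limma adjusted p = 0.854), and -0.01 in males (adjusted p = 0.954). Its sign turned with scaling, to 0.02 after a second quantile normalization. The gene has isoforms with different pores, of which the thick ascending limb uses claudin-10b and the proximal tubule claudin-10a, and 1 row cannot separate them.

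Cldn14, the inhibitory claudin, had 4.38, 4.50, 4.40, 4.39 and 4.48 in CsA arrays. It had 4.42, 4.33, 4.29, 4.25 and 4.50 in vehicle arrays. The vehicle range contained all CsA arrays but 1, which lay at its upper end. The difference was 0.07 with an interval from -0.07 to 0.21 (limma adjusted p = 0.612), and 0.06 in males (-0.11 to 0.23, adjusted p = 0.708). The upper bounds correspond to a rise of 15.9% over all arrays and 17.7% in males. The row's mean was at the 32.9th percentile of all genes, and dim rows compress differences. Detection calls were not used here, so whether this row was above background is not known.

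The promoter windows of Casr and Cldn19, which were called, and of Cldn16 and Cldn14, which were not, are shown because calcineurin, the target of CsA, acts through the NFAT transcription factors. Each window runs from 250 bases before to 50 after a transcription start in RefSeq, build GRCm38.p6, printed on the strand of the gene. The capitals mark the letters GGAAAA, which contain GGAAA, the core of NFAT sites, or TTTTCC, the same letters on the other strand. Stretches with GGAAA alone were not counted as matches. The first letters, GGAA, are also the core of sites for ETS factors. The windows are chr16:36562085-36562384 (minus strand) for Casr, chr4:119255191-119255490 (plus strand) for the first of 2 Cldn19 starts, chr16:94008788-94009087 (minus strand) for the first of 3 Cldn14 starts, and chr16:26462885-26463184 (plus strand) for Cldn16.
Casr: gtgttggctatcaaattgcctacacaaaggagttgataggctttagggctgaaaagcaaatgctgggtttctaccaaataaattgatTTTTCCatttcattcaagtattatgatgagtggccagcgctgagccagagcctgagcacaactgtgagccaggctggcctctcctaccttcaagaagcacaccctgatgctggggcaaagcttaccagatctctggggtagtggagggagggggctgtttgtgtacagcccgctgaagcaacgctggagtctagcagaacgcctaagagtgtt
Cldn19: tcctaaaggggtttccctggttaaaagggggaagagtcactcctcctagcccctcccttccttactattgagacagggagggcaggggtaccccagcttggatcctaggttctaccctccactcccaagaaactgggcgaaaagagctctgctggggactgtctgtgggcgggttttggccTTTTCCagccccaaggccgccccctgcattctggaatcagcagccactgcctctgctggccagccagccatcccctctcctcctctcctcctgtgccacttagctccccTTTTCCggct
Cldn14: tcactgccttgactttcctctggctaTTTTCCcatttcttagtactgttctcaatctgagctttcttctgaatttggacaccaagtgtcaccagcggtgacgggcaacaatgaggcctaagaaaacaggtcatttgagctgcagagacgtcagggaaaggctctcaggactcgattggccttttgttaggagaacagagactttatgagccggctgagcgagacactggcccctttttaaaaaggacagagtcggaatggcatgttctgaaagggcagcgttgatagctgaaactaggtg
Cldn16: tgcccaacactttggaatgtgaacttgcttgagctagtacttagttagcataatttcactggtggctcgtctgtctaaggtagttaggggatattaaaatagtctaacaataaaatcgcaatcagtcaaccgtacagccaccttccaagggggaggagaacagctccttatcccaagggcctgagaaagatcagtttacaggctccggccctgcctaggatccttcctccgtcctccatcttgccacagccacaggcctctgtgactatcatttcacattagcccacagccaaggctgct
The Casr window held 1 match, the Cldn19 window 2, the Cldn14 window 1 and the Cldn16 window 0. Of all 32851 RefSeq windows, 23.36% held at least 1. Of the 9 genes, 8 had windows in the table, 12 in all, and 7 of those windows in 5 genes held the letters. The 2 Cldn19 windows overlap and hold the same matches, so 1 stretch was counted in both. Neither overlap nor base composition was taken into account. Whether the share exceeds that of all windows was not tested. Slc12a1 and Umod, which were not called, had matches too, and Kcnj1 and Cldn10 had none. Bsnd had no entry. A match of 6 letters describes the sequence and does not show that a factor binds there.

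In mouse kidney, calcineurin and NFATc1 are known to keep up the microRNAs miR-9 and miR-374, which repress Cldn14, and calcium sensing lowers them. Their mature 5' strands are shown, from RefSeq, with the seed (bases 2 to 8) in capitals because the seed is the part that pairs with a target mRNA.
mmu-miR-9-5p: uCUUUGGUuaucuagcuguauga
mmu-miR-374b-5p: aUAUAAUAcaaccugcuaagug
mmu-miR-374c-5p: aUAAUACAaccugcuaagug
The 3 seeds differ from each other. The array reads the hairpin genes and not the mature strands, and 0 of the 5 rows were called. The hairpin genes Mir9-1, Mir9-2 and Mir9-3, which share 1 mature strand, differed by -0.16, 0.13 and 0.20 (limma adjusted p = 0.344, 0.557 and 0.257). Mir374b differed by -0.21 (adjusted p = 0.353) and Mir374c by 0.29 (adjusted p = 0.278). The rows of Mir9-2 and Mir374c lay at percentiles 3.61 and 2.92 of gene means, close to the bottom of the array's scale.

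Of 19 genes on this route from the receptor to claudin-14, G proteins, NFAT factors and histone deacetylases included, 0 rose and 1 fell, against 6.49% of all genes called. Plcb1, a phospholipase C activated by Gq-coupled receptors, averaged 7.85 ± 0.03 in CsA and 8.09 ± 0.08 in vehicle arrays (SD, n = 5 each) and fell by 0.24 on the log2 scale (limma adjusted p = 0.0348). It did not pass in males (-0.23, adjusted p = 0.109) or without any of 9 single arrays in turn (adjusted p from 0.0510 to 0.0884). Nfatc1 differed by 0.16 ± 0.09 (SE, adjusted p = 0.319). The median difference of the 19 genes was 0.05, or 0.09 in males, in which 0 were called.

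**Figure D3:**
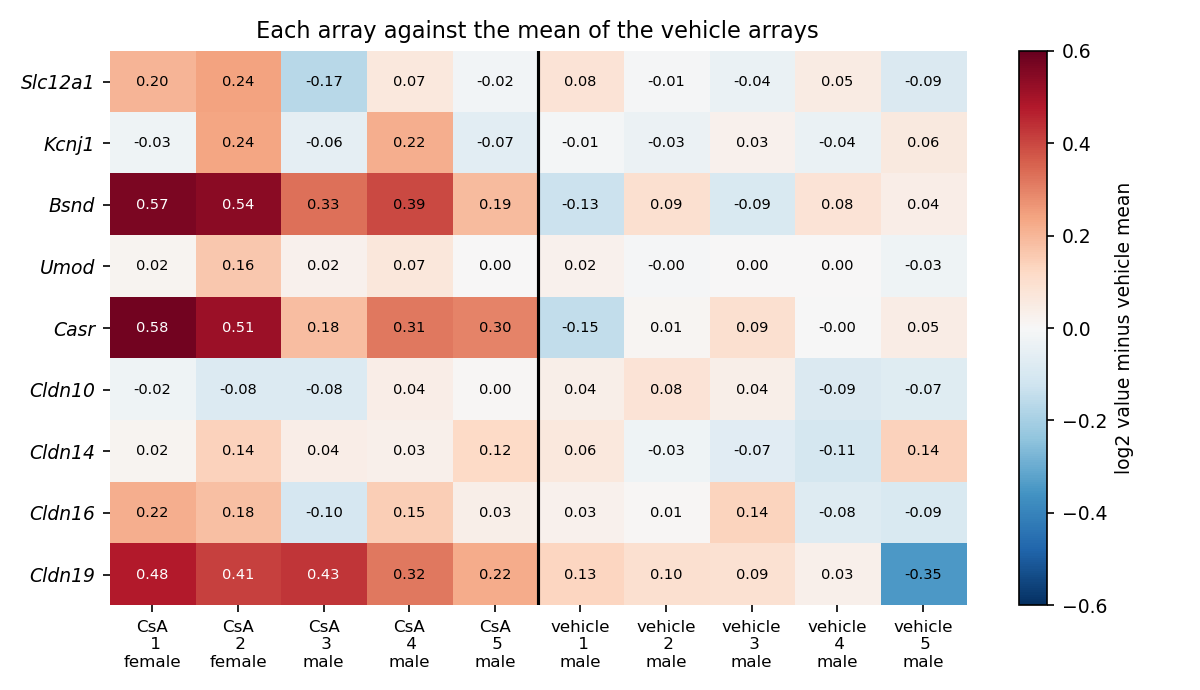
Log2 value of each array minus the mean of the vehicle arrays for the 9 genes (rows), with CsA arrays left of the black line and vehicle arrays right; red is above and blue below the vehicle mean. Bsnd, Casr and Cldn19 are above it in all 5 CsA arrays, Bsnd and Casr most in the 2 female arrays, and Cldn19 is 0.35 below it in vehicle replicate 5.

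The 2 female arrays moved with several of these results. For Slc12a1, Bsnd, Casr and Cldn16, both female CsA arrays exceeded every male CsA array, as for 12.6% of all genes. The difference was smaller in size in males only for all 9 genes, and for 46.5% of all genes. In a fit of all 10 arrays with a term for female RNA, that term was above 0 for 8 of the 9 genes and 52% of all genes. It had an unadjusted p under 0.05 for Slc12a1 (0.26), Bsnd (0.25) and Casr (0.28), against 9.53% of all genes. None of the 3 passed adjustment (limma adjusted p from 0.345 to 0.465), which 0.589% of all genes did. In that fit 0 of the 9 genes were called for CsA, where 3.27% of all genes were. Because no vehicle array was female, its CsA difference is the males-only difference, and only the variance differs. It is therefore no separate check. With no female vehicle array, a sex difference in the response to CsA cannot be told apart from a sex difference at baseline.

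Arrays of 1 group also varied together in some pairs of these genes. Over the 10 arrays, as deviations from the group mean, Pearson's r was 0.76 for Umod and Kcnj1, 0.73 for Slc12a1 and Cldn16, and 0.69 for Bsnd and Casr. The lowest r of all pairs was -0.60, for Cldn14 and Cldn19. Within the 5 vehicle arrays, Umod and Kcnj1 had an r of -0.54, Slc12a1 and Cldn16 one of 0.04, and Bsnd and Casr one of 0.36. These are descriptions over few points that share the arrays and the 2 female samples.

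The gene whose deviations were most like those of Slc12a1 among 18576 named genes was Tspan8, a tetraspanin (r = 0.97). Grk6, a G protein-coupled receptor kinase, was closest to Casr (0.97), Cdc73 to Bsnd (0.93), and Pomt2, a protein mannosyltransferase, to Cldn19 (0.96). Cgn, which encodes the tight junction protein cingulin, was closest to Cldn14 (0.93). The closest for Umod was Bpifb3 (0.96), for Kcnj1 Hnrnph1 (0.97), for Cldn10 Tmem238 (0.97) and for Cldn16 Prdm16os (0.95). With 10 arrays and this many genes, values of this size mark the nearest profile and no more. Nearest to the mean profile of the 9 genes were Gprasp1, Bex1, Nfib, Antxr2 and Plpp5 (0.94 to 0.95).

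Other genes of the thick ascending limb moved in both directions. Of 28 measured, 3 rose and 3 fell (6.49% of all genes called), with a median difference of 0.06, or -0.03 in males, in which 1 rose and 2 fell. Among those that rose were Fxyd2, the gamma subunit of the sodium pump, and Adcy6, an adenylyl cyclase that vasopressin activates. Fxyd2 lay between 9.91 and 10.03 in CsA and between 9.61 and 9.70 in vehicle arrays, a difference of 0.31 ± 0.06 (SE, limma adjusted p = 0.00904) that was 0.30 in males (adjusted p = 0.0437). Adcy6 differed by 0.30 ± 0.07 (adjusted p = 0.0303) and by 0.25 in males (adjusted p = 0.133).

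The 3 that fell were Cnnm2, Rragd and Kcnj16. Cnnm2, a basolateral protein that is mutated in inherited magnesium loss, had 7.08, 6.97, 7.02, 7.08 and 7.07 in CsA and 7.39, 7.69, 7.47, 7.53 and 7.69 in vehicle arrays. No CsA array reached the vehicle range, and the gene was 1.43-fold lower (limma adjusted p = 0.00227), with a males-only difference of -0.50 (adjusted p = 0.0200). Rragd, a small GTPase of nutrient signalling whose mutation causes salt and magnesium loss, had 8.57, 8.63, 8.55, 8.55 and 8.50 in CsA and 9.11, 9.05, 8.90, 9.04 and 8.96 in vehicle arrays. Its groups were also apart, and it was 1.37-fold lower (limma adjusted p = 0.00214), with -0.48 in males (adjusted p = 0.0124). Both genes are also active in the distal convoluted tubule. How many of all genes had groups apart with CsA lower was not counted.

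Kcnj16, a basolateral potassium channel subunit of distal segments, lay between 10.97 and 11.21 in CsA and between 11.22 and 11.59 in vehicle arrays. It fell by 0.33 on the log2 scale (limma adjusted p = 0.0430), and by 0.30 in males without passing (adjusted p = 0.164). Tmem207 differed by -0.28 ± 0.08 (SE, adjusted p = 0.0530) and Slc9a3, the apical sodium-proton exchanger, by 0.12 ± 0.08 (adjusted p = 0.417). The median of the 28 genes thus stood near 0 while members lay on both sides.

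**Figure D4:**
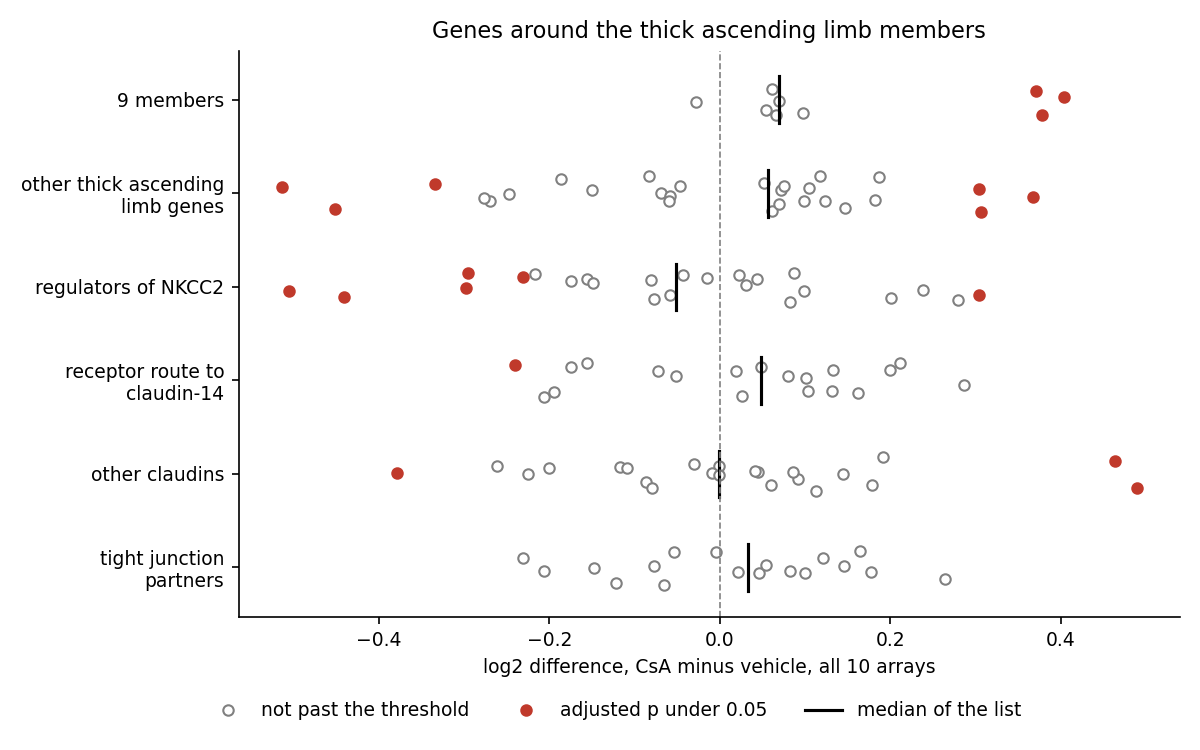
Log2 differences, CsA minus vehicle, over all 10 arrays for the 9 genes and 5 lists around them, 1 point per gene, with filled points past a limma adjusted p of 0.05 and a black bar at each list's median. Genes past the threshold lie on both sides of 0 in the lists of other thick ascending limb genes, NKCC2 regulators and other claudins.

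NKCC2 is switched on by a kinase cascade in which WNK kinases activate SPAK and OSR1, and the KLHL3 and cullin-3 ubiquitin ligase removes the WNKs. Of 24 measured regulators, 1 rose (Adcy6) and 5 fell, with a median difference of -0.05, where 2.95% of all genes rose and 3.54% fell. In males 0 rose and 2 fell (3.17% of all genes called). Wnk1 lay between 10.13 and 10.37 in CsA and between 10.64 and 10.79 in vehicle arrays, and Klhl3 between 7.01 and 7.54 in CsA and between 7.72 and 7.90 in vehicle arrays. Neither gene's groups overlapped, but the share of all genes with every CsA array lower was not counted. Both genes also passed in males, Wnk1 with -0.49 (limma adjusted p = 0.0108) and Klhl3 with -0.59 (adjusted p = 0.0120). Each was read as 1 row of whole-kidney RNA, which separates neither segments nor transcripts of a gene. Klhl3 is also on the list of distal convoluted tubule markers described below. The part of that segment in the falls of Wnk1 and Klhl3 was not tested.

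Cul3, the ligase scaffold, differed by -0.30 ± 0.07 (SE, limma adjusted p = 0.0212). Prkaa2 and Prkaa1, the catalytic subunits of AMP-activated kinase, differed by -0.30 ± 0.07 (adjusted p = 0.0207) and -0.23 ± 0.06 (adjusted p = 0.0469). None of these 3 passed in males (adjusted p from 0.0595 to 0.109). Oxsr1, which encodes OSR1, differed by -0.16 ± 0.06 (adjusted p = 0.189), and Sorl1, a sorting receptor that affects NKCC2, by 0.24 ± 0.07 (adjusted p = 0.0720).

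Among 23 other measured claudins and claudin-domain genes, 2 rose and 1 fell (6.49% of all genes called), and in males 0 rose and 1 fell (3.17% of all genes called). Cldn1 had 8.21, 7.98, 8.09, 8.23 and 7.82 in CsA and 7.70, 7.65, 7.71, 7.53 and 7.28 in vehicle arrays, 1.40-fold higher in CsA (limma adjusted p = 0.0167). Cldn4, a claudin of the collecting duct, had 7.98, 7.60, 7.47, 7.56 and 7.51 in CsA and 7.16, 7.42, 7.08, 6.98 and 7.16 in vehicle arrays, 1.38-fold higher in CsA (adjusted p = 0.0264). Both pairs of groups were apart, as for Cldn19 and for 4.04% of all genes in that direction.

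In males the difference was 0.47 for Cldn1 (limma adjusted p = 0.0732) and 0.35 for Cldn4 (adjusted p = 0.0857). Cldnd1, a claudin-domain gene, was 1.30-fold lower in CsA (adjusted p = 0.00792), with 8.33 to 8.57 in CsA and 8.78 to 8.94 in vehicle arrays, and also passed in males (-0.32, adjusted p = 0.0406). Cldn8, which had the highest mean of the claudins outside the thick ascending limb set, differed by 0.05 ± 0.08 (SE, adjusted p = 0.815). Of 18 tight junction partners such as occludin and the zonula occludens proteins, limma called 0 over all arrays (6.49% of all genes called).

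**Figure D5:**
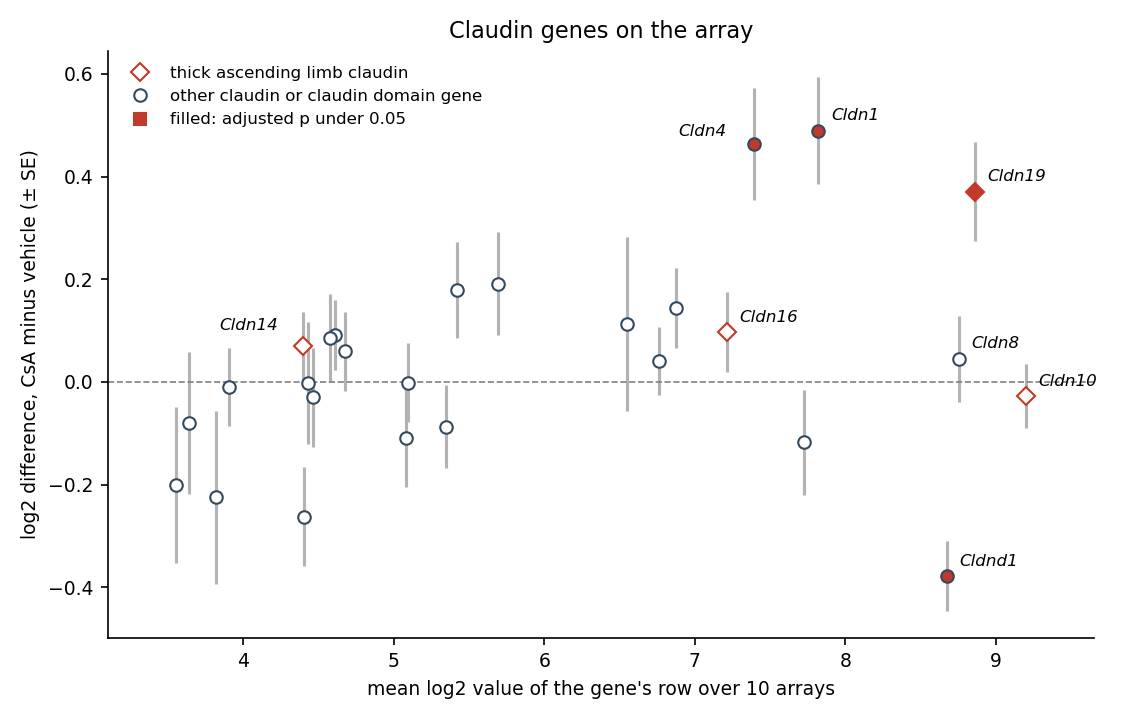
Log2 difference, CsA minus vehicle (± SE), of each claudin or claudin-domain gene against the mean log2 value of its row over 10 arrays. Diamonds are the 4 thick ascending limb claudins, circles the other 23 genes, and filled symbols passed a limma adjusted p of 0.05; Cldn1, Cldn4 and Cldn19 lie between 0.37 and 0.49, Cldnd1 at -0.38.

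Markers of some other cell types moved with the groups. Over all genes, 6.49% were called with all arrays and 3.17% in males. Of 6 macrophage markers, 4 rose (C1qb, Adgre1, Cd68 and C1qa), also 4 in males, and their summed level was 9.96 to 10.25 in CsA and 9.30 to 9.55 in vehicle arrays. Of 6 markers of the distal convoluted tubule, which follows the thick ascending limb, 4 fell (5 in males), with a summed level of 11.38 to 11.72 in CsA and 12.16 to 12.47 in vehicle arrays. Klhl3 is 1 of those 4.

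Of 5 thick ascending limb markers (Slc12a1, Umod, Egf, Kcnj1 and Cldn16), 0 were called, where 6.49% of all genes were. Their summed level was 13.33 to 13.61 in CsA and 13.41 to 13.47 in vehicle arrays. All of these markers except Egf were already described above as not called, and Bsnd, Casr and Cldn19 were not on the list. The list is therefore no separate check on the amount of this segment in the samples. In the other lists, 1 of 6 proximal tubule markers (Miox), 1 of 5 principal cell markers (Fxyd4) and 1 of 6 adipocyte markers (Retn) rose. In males Retn kept its call (limma adjusted p = 0.0168), and Miox (0.0874) and Fxyd4 (0.0614) did not. Limma called 0 markers of podocytes, endothelium, T cells, red blood cells and urothelium over all arrays. In males 1 of 3 red blood cell markers, the haemoglobin gene Hbb-bt, named after its values were seen, was higher in CsA by 1.21 (limma adjusted p = 0.00503), against 0.79 over all arrays (adjusted p = 0.0913). The part of any of these in the differences of Bsnd, Casr and Cldn19 was not tested.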

How the data were processed

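The authors deposited log2 expression values for each feature of each array; the submitters' processing notes name RMA and Partek 6.4, without settings. The genome build and array annotation are not given in the sources used here. Per the labels' protocols, 200 ng of total RNA per sample was amplified and labelled. Both deposited tables held 41345 identical features (largest difference 0). Current symbols came from the GRCm38.p6 gene table of RefSeq, by accession for 21745 features, gene identifier for 2499 and synonym for 202; 4153 deposited symbols were current, 3871 were kept and 8874 features had none. Each gene was its feature with the highest mean, without a filter on dim features. Deposited Cldn25 was current Cldnd1.

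The contrast CsA minus vehicle was fitted with lmFit and eBayes of limma 3.58.1 (R 4.3.3, 2-sided), with Benjamini-Hochberg adjustment over all 30894 genes. SE and 95% intervals come from the moderated variance. Summed levels are log2 of the sum of a list's unlogged values. The number of arrays limits the precision. Named were the 9 genes, up to 4 called genes per list, other genes of 3 lists (thick ascending limb, NKCC2 regulators, receptor route) and the leading claudins; Ocln was chosen after its values were seen. A few genes of the thick ascending limb list are not reported here but enter its counts. The members and lists were chosen with earlier results of these data known. Alternatives were the male arrays, a sex term, omission of each array, 2 filters, 3 scalings, 2 variance models, array weights and 2 treatments of a gene's features.

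On simulated arrays of 30894 genes, changes of 0.25, 0.5 and 1 log2 were planted in 67, 67 and 66 genes. The comparison of all 10 arrays recovered 6.0%, 59.7% and 95.5% of them, with 5 of 112 calls false. With male arrays only, it recovered 0.0%, 26.9% and 89.4%, with 6 of 83 calls false. The spread simulated for the male arrays was taken around the mean of all 5 CsA arrays, females included. A sex offset therefore widens it, unlike in the males-only fit of the data. The data gave far more calls (2004 and 980), so the adjusted threshold was stricter in the simulation than in the data.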

Additional observations from a re-analysis of the deposited data

Results flagged for a closer look

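In groups of 5 arrays, 1 array was called far from the others where its gap to the nearest, divided by the range of the group, exceeded 0.71; chance alone gives this in about 1 group in 20, and 94 groups were examined for the genes named. Among the 9 genes this was met once, by Cldn19 in vehicle replicate 5 (8.33), below the other vehicle arrays at 8.70 to 8.80. Cldn4 in CsA replicate 1 (7.98), which carries female RNA, lay above the next CsA array at 7.60, and Ocln, the occludin gene, in the same array (8.37) above the next at 8.22. C1qb, a macrophage gene, stood at 8.99 in CsA replicate 2, the other female array, with the next CsA array at 8.56. Plcb1 in vehicle replicate 3 (8.22) lay above the next vehicle array at 8.08.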

How the results depend on the processing

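Of the 3 calls among the 9 genes, Bsnd and Casr each passed under 10 of the 12 alternatives other than omitting an array, and Cldn19 under 6. Some of these alternatives could hardly end a call. Each of the 9 genes had 1 row, so averaging a gene's rows left its values unchanged. The 2 filters kept the 3 called genes with the same differences and adjusted over fewer genes. With the male arrays or with a sex term, 0 of the 9 were called, and omitting each array in turn left 1 to 3 (1 without CsA replicate 2 or vehicle replicate 1, 2 or 4). The male arrays and the sex term give the same differences, so they are not separate checks. The 3 genes kept a positive difference throughout. Over all genes, 2004 were called, 980 in males only, 1011 with a sex term, 3284 among genes with a mean at or above the median, and 1134 to 1927 with 1 array omitted (1229 without CsA replicate 2, and 1229, 1179, 1134 and 1245 without vehicle replicates 1 to 4). Subtracting array medians gave 605 higher and 1322 lower calls, against 911 and 1093. Signs turned for Slc12a1 (-0.0391 in males only and with a sex term), Cldn10 (0.0182 after a second quantile normalization, 0.0288 after centring within bins of gene length) and Cldn8 (from -0.0007 without CsA replicate 4 to 0.102 without CsA replicate 3, against 0.05 with all arrays). The cause was not tested. Counted gene by gene, omitting an array ended a call among the 9 genes 12 times and the other alternatives 10 times; among the other named genes calls were lost 52 and 36 times and gained 3 and 23 times. Called genes on the list of other thick ascending limb genes numbered 6 over all arrays and 3 in males or with a sex term (3 to 7 with 1 array omitted), regulators of NKCC2 6 and 2 (2 to 5), other claudins 3 and 1 (2 to 3), the receptor route 1 and 0 (0 to 1, and 2 with the filter at the median), and tight junction partners 0 and 0 (0 to 1, and 4 with that filter). Cldn14 had no value with the filter at the median, which removes it. No paired analysis was possible because the labels give no shared replicate numbers; replicates are numbered in accession order. The number of arrays limits what can be called. On simulated arrays, 59.7% of changes of 0.5 log2 and 6.0% of 0.25 were recovered with all arrays, and 26.9% and 0.0% with the male arrays. Far fewer genes were called there (112 and 83) than in the data, which makes the adjusted threshold stricter. These shares thus do not give the power of the comparisons in the data.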
